A study of Mus musculus with 12 samples.

Results

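The transcripts described here are encoded by the mouse mitochondrial chromosome. They were taken as every row of the deposited count table whose gene name begins with mt-, which gave 37 of 46882 names: 13 mRNAs, 2 rRNAs and 22 tRNAs. They were measured by RNA sequencing of whole kidney in 12 C57BL/6 mice aged 6 to 8 weeks, 6 wild-type (WT) and 6 A1cf -/- (A1cf KO). A1cf encodes an RNA-binding protein known as a cofactor of the APOBEC1 editing enzyme. The series calls the animals biological replicates, and each library is named by its animal number. The sources used here give neither the allele, nor the tissues in which it was deleted, nor the sex of the animals. They also do not say whether the libraries were selected for poly(A), depleted of rRNA or made to keep strand.

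The mitochondrial chromosome is a small circle present in many copies per cell. Its mRNAs encode core subunits of the respiratory chain: parts of complex I (the mt-Nd genes, NADH dehydrogenase), cytochrome b of complex III (mt-Cytb), the catalytic core of complex IV (the mt-Co genes, cytochrome c oxidase) and membrane parts of ATP synthase (mt-Atp6 and mt-Atp8). All other subunits, and the proteins that copy and transcribe this chromosome, are made from nuclear genes. Both strands are transcribed into long precursors. Most mRNAs and both rRNAs are read from one strand, mt-Nd6 and a set of tRNAs from the other, and many tRNAs lie between the longer genes, where their removal releases the neighbours. Kidney tubules, above all the proximal tubule and the thick ascending limb of the loop of Henle, reabsorb salts and solutes with ATP from oxidative phosphorylation and are rich in mitochondria.

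Total counts per library ranged from 26671705 (WT 776) to 52899139 (A1cf KO 574). A1cf itself had 1446 to 2941 counts in WT libraries and 104 to 293 in A1cf KO libraries, a log2 fold change of -3.72 (SE 0.15, adjusted p = 6.0e-09 by edgeR's quasi-likelihood test), so the labels held in every library. Of 16910 genes tested, 8 passed an adjusted p of 0.05. The animal numbers form 2 series, 573 to 602 with 3 WT and 5 A1cf KO animals, and 776 to 780 with 3 WT and 1 A1cf KO animal. The labels do not say what the numbers stand for, and the series is uneven between genotypes. Among the mitochondrial genes the 13 mRNAs, the 2 rRNAs and 5 tRNAs had enough counts to be tested. The other 17 tRNAs did not, with at most 14 counts in any library, and mt-Td and mt-Tk had 0 counts in all 12.

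Mitochondrial transcripts made up a large part of every library. Their share of all counts had a lowest, median and highest value of 9.13%, 9.82% and 11.8% in WT libraries and of 11.1%, 11.5% and 12.7% in A1cf KO libraries. The groups overlapped: WT 776, the highest WT library, lay above 4 of the 6 A1cf KO libraries, and WT 778 at 10.98% lay just under the lowest of them. The mean was 10.2% ± 0.99 in WT and 11.7% ± 0.58 in A1cf KO (SD, n = 6 each). Nearly all of this was mRNA. The rRNAs took 0.140% to 0.244% of counts in WT and 0.174% to 0.293% in A1cf KO, and the tRNAs 0.00704% to 0.0120% and 0.00995% to 0.0124%.

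The 13 mRNAs fell into a group of 7 with high counts and a group of 6 with low ones. Levels between genes were compared as CPM per kilobase of gene, CPM being counts scaled to a common library total with TMM factors. On this scale mt-Co1 was highest (mean of the 12 libraries 22957), followed by mt-Cytb (21482), mt-Nd1 (16174), mt-Nd2 (10111), mt-Nd6 (7273), mt-Nd4 (6569) and mt-Nd5 (4685). Within WT libraries mt-Co1 (19279.8 to 24245) and mt-Cytb (17915 to 22467) overlapped, as did mt-Nd2 (7134 to 10967) with mt-Nd6 (6095 to 8256), and mt-Nd6 with mt-Nd4 (5353 to 6800). The steps from mt-Cytb to mt-Nd1 (13058 to 17204), from mt-Nd1 to mt-Nd2 and from mt-Nd4 to mt-Nd5 (3778 to 4817) were larger than the spread between WT libraries. Far below lay mt-Co3 (32.9), mt-Nd3 (29.9), mt-Co2 (25.2), mt-Atp6 (17.3), mt-Nd4l (6.51) and mt-Atp8 (5.07). The gap between the lowest of the 7 and the highest of the 6 was 143-fold, and between mt-Co1 and mt-Atp8 it was 4532-fold. The 7 held at least 99.9% of mitochondrial mRNA counts in every library.

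**Figure D1:**
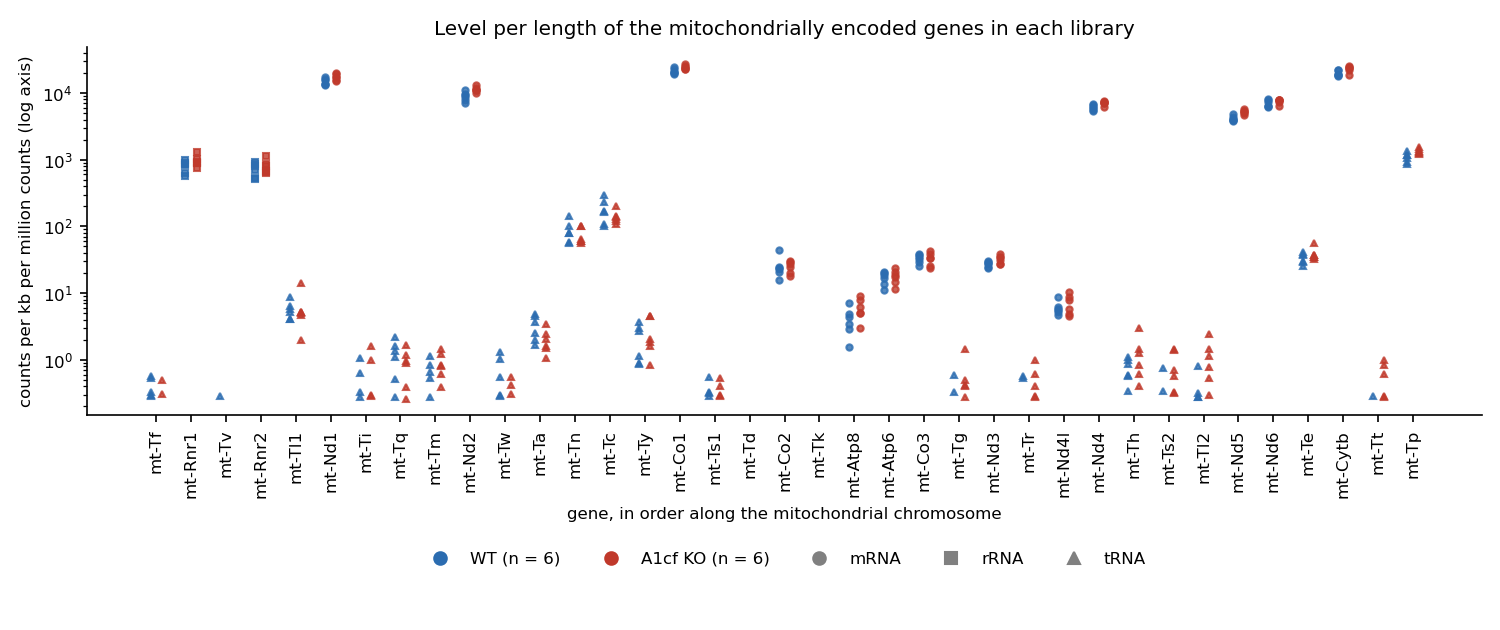
Level per length of the mitochondrial genes (y axis, CPM per kilobase, log axis) in their order along the chromosome (x axis), with a point per library, blue for WT and red for A1cf KO, and values of 0 not drawn. The 7 well-counted mRNAs lie between 4685 and 22957 on average, and the other 6 between 5.07 and 32.9.

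The 6 mRNAs with low counts lie next to each other on the mitochondrial chromosome, between the 3′ part of mt-Co1 and the 5′ part of mt-Nd4. A stretch of chromosome 1 that carries 7 annotated pseudogenes on its minus strand holds a near copy of this segment. In GRCm38 (mm10), bases 6390 to 11042 of the mitochondrial chromosome (4653 bases) matched bases 24611535 to 24616188 of chromosome 1 (4654 bases) through these pseudogenes. The chromosome 1 pseudogenes were identical to the mitochondrial gene over 681 bases of mt-Co2 (Gm28661), 678 of mt-Atp6 (Gm10925), 783 of mt-Co3 (Gm28437), 342 of mt-Nd3 (Gm28438), 294 of mt-Nd4l (Gm10222) and 876 of mt-Nd4 (Gm28439). Gm29216 differed from mt-Co1 at 1 of 483 bases. A 60-base stretch of mt-Atp6 (chrM:8197-8256, plus strand) and the same stretch of Gm10925 (chr1:24614322-24614381, minus strand), from GENCODE M21 transcripts, show how complete the match is. No base is in capitals because none differs:
mt-Atp6: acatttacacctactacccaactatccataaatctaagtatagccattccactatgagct
Gm10925: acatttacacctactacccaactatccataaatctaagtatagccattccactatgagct

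A second group of copies on chromosome 2 is more diverged. Gm13340 matched all 1545 bases of mt-Co1 with 37 differences, an identity of 97.6%. A stretch of mt-Co1 (chrM:5482-5541, plus strand) is set beside its counterpart in Gm13340 (chr2:22589434-22589493, minus strand), with the differing base in capitals:
mt-Co1: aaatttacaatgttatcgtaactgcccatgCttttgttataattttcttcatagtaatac
Gm13340: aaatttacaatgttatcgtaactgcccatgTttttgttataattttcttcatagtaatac

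To put all genes on one scale, each mitochondrial transcript was divided into overlapping 50-base windows and each window was looked up in every annotated nuclear transcript, on both strands. All windows of mt-Co2 (100%) were found in a nuclear transcript, and 99.9% of those of mt-Co3, 99.5% of mt-Atp6, 98.8% of mt-Nd4l and 98.0% of mt-Nd3. The shares were 62.2% for mt-Nd4, 51.1% for mt-Co1, 8.19% for mt-Nd2, 7.61% for mt-Nd5 and 1.04% for mt-Rnr2. No window of mt-Nd1, mt-Nd6, mt-Cytb, mt-Atp8, mt-Rnr1 or any tRNA was shared. With 100-base windows mt-Co2, mt-Co3, mt-Atp6, mt-Nd4l and mt-Nd3 kept shares of 97.6% or more, and mt-Co1 came to 30.8%.

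The authors' counting command, as the file header gives it, sets no option for reads that align to several places, and featureCounts by default leaves such reads out. The 5 mRNAs with nearly all windows shared are thus uncertain in level. mt-Nd4 (62.2% of windows shared) and mt-Co1 (51.1%) may have lost reads as well. Their places in the ranking per length, beside genes with no shared window, are therefore uncertain too. The part of shared sequence in any of these levels was not tested. The pseudogenes had few counts themselves: the 7 on chromosome 1 together had 1676 to 5257 counts per library, and adding all annotated copies left the mitochondrial share at 10.2% in WT and 11.7% in A1cf KO. Reads that align equally to a pseudogene and its mitochondrial gene would be left out of both. These counts therefore cannot show how many reads were lost. mt-Atp8 was low without a shared window. It lies inside the copied segment, but of its 204 bases annotated chromosome 1 transcripts cover only the last 43, in Gm10925, which is shorter than a window. Unannotated sequence was not analysed here.

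**Figure D2:**
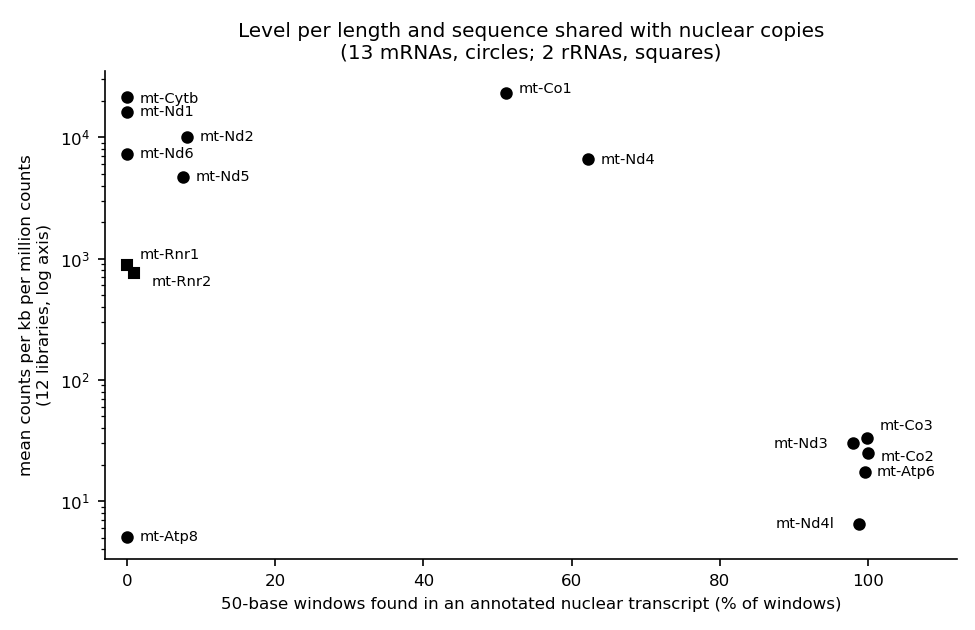
Share of each gene's 50-base windows found in an annotated nuclear transcript (x axis, percent) against its mean level (y axis, CPM per kilobase, log axis), with a circle per mRNA and a square per rRNA. The 5 mRNAs at 98.0% or more sit at 32.9 or lower, and mt-Atp8 sits low at 0%.

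Overlap between neighbouring genes touches the same values. mt-Atp8 and mt-Atp6 share 43 bases on the same strand (chrM:7927-7969). The end of mt-Atp8 (chrM:7895-7969) and the start of mt-Atp6 (chrM:7927-8001) show the shared bases in capitals:
mt-Atp8: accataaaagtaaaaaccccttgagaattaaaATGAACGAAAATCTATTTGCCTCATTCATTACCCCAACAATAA
mt-Atp6: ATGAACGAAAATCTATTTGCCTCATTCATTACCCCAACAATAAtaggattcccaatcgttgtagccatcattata

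Reads that span both genes cannot be given to either. mt-Nd4l and mt-Nd4 overlap by 7 bases. mt-Nd5, on the plus strand, and mt-Nd6, on the minus strand, meet tail to tail and overlap by 14 bases (chrM:13552-13565), in capitals in the last bases of mt-Nd5 (chrM:13521-13565) and of mt-Nd6 (chrM:13552-13596), each written 5′ to 3′ on its own strand:
mt-Nd5: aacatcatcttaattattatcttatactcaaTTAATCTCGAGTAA
mt-Nd6: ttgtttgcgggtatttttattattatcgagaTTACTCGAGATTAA

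The counting used no strand option, so antisense reads over either gene would be counted with it.

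The main comparison asked how the mitochondrial transcripts differed between kidneys with and without A1cf. None of the 20 tested genes passed an adjusted p of 0.05 by edgeR's quasi-likelihood test, against 0.0473% of all genes tested (0.0118% higher in A1cf KO). At an unadjusted p of 0.05, 8 were higher in A1cf KO and 0 lower, against 5.07% and 5.28% of all genes. DESeq2 called 1, mt-Nd5, as higher, against 0.603% of its 14930 genes (1.14% in either direction), and limma-voom called 0. The sign of the log2 fold change was positive for 17 of the 20 and for 49.2% of all genes. The 20 genes are transcribed in long precursors and were measured in the same animals. Neither their signs nor the 8 genes above are therefore separate results. The mRNAs had a median of 0.22 (range -0.02 to 0.60), and 12.1% of all genes had a value at or above that median. The median over all genes was -0.0030. In none of the 20 were the groups free of overlap, against 0.84% of all genes.

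**Figure D3:**
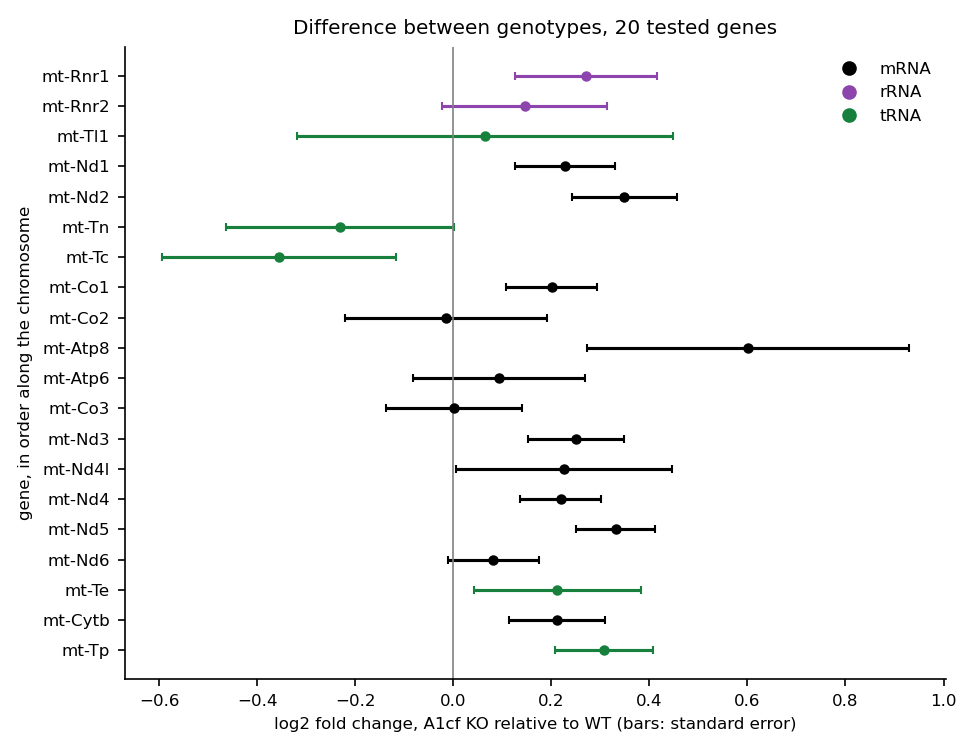
Log2 fold change of A1cf KO against WT for each tested mitochondrial gene with its standard error as a bar (edgeR), in order along the chromosome and coloured by class, with a line at 0. The complex I mRNAs all lie above 0, and mt-Tc, mt-Tn and mt-Co2 lie below.

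The 7 complex I mRNAs all had positive fold changes, with a median of 0.23. mt-Nd5, a membrane-arm subunit that takes part in proton pumping, had a lowest, median and highest level of 6890.4, 7339 and 8786 CPM in WT and of 8632, 9574 and 10340.4 in A1cf KO. All A1cf KO libraries but A1cf KO 584 lay above every WT library, and WT 776 alone reached into the A1cf KO range. Its log2 fold change was 0.33 (SE 0.080, adjusted p = 0.18 by edgeR and 0.00086 by DESeq2, with adjusted p between 0.00086 and 0.36 over all alternatives).

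mt-Nd2, another membrane-arm subunit, ran 7405, 9278 and 11384 CPM in WT and 10289, 11483 and 13842 in A1cf KO. WT 776 again overlapped the A1cf KO libraries, 4 of which lay above it. The log2 fold change was 0.35 (SE 0.11, adjusted p = 0.31 by edgeR and 0.053 by DESeq2).

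mt-Nd4 had 7376, 8378 and 9371 CPM in WT against 8615 (A1cf KO 584), 9825 and 10488 in A1cf KO, and all A1cf KO libraries but the lowest lay above every WT library (log2 fold change 0.22, SE 0.083, adjusted p = 0.38 by edgeR). mt-Nd1, which joins the membrane arm to the peripheral arm near the ubiquinone site, had 12497, 13927 and 16465 CPM in WT and 14327, 16885 and 18788 in A1cf KO. Its groups overlapped, with 4 A1cf KO libraries above every WT library (0.23, SE 0.10, adjusted p = 0.46 by edgeR).

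mt-Nd6 differed least of the complex I mRNAs and is the one mRNA read from the opposite strand. It ran 3163, 3578 and 4285 CPM in WT and 3258, 4024 and 4076 in A1cf KO. No A1cf KO library lay above the highest WT library, and A1cf KO 584 stood well below the other A1cf KO libraries. The log2 fold change was 0.08 (SE 0.093, adjusted p = 0.80 by edgeR).

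The remaining complex I mRNAs, mt-Nd3 and mt-Nd4l, belong to the segment copied on chromosome 1. mt-Nd3 had 8.35, 9.77 and 10.4 CPM in WT and 9.57, 11.6 and 13.5 in A1cf KO, with 4 A1cf KO libraries above every WT library (0.25, SE 0.097, adjusted p = 0.40 by edgeR). mt-Nd4l stayed between 1.37 and 3.04 CPM in all libraries and its groups overlapped throughout (0.23, SE 0.22, adjusted p = 0.76 by edgeR).

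mt-Cytb, the one mitochondrially encoded subunit of complex III, ran 20494, 21938 and 25702 CPM in WT and 21536, 27061 and 28934 in A1cf KO. A1cf KO 584 and A1cf KO 574 lay inside the WT range, and the other 4 A1cf KO libraries lay above it. The log2 fold change was 0.21 (SE 0.099, adjusted p = 0.48 by edgeR).

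**Figure D4:**
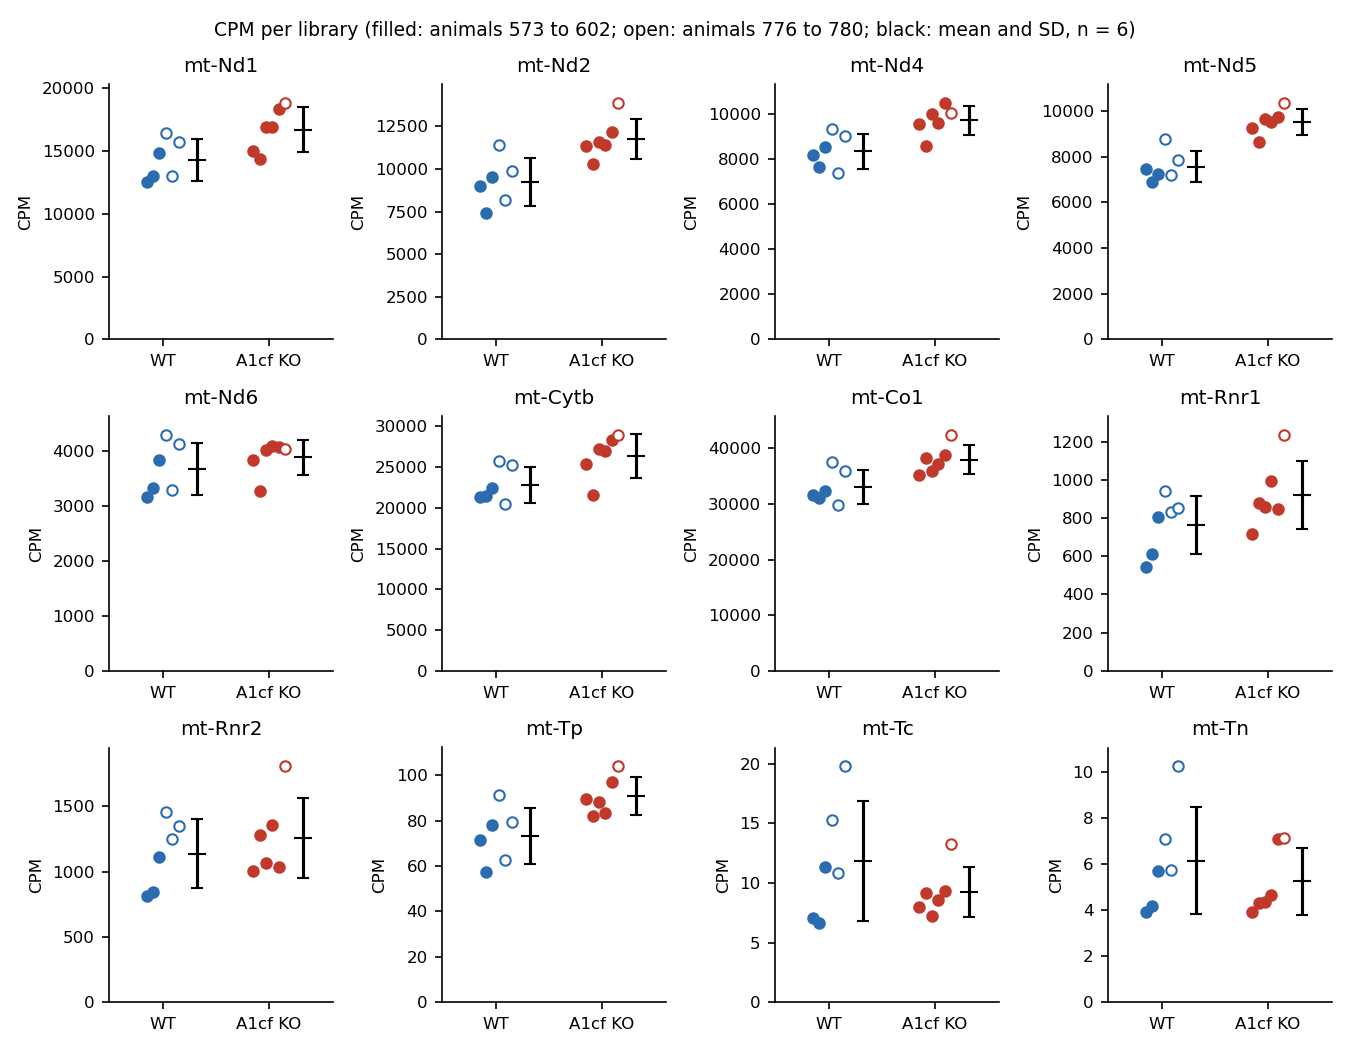
Level (CPM) of the 7 well-counted mRNAs, the 2 rRNAs and 3 tRNAs with a point per library (filled for animals 573 to 602, open for 776 to 780), and the mean and SD of each group in black; each panel has its own axis from 0. For mt-Nd5, 5 of the 6 A1cf KO libraries lie above all WT libraries, and for mt-Nd6 none does.

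Of the 3 complex IV mRNAs only mt-Co1 is well counted. mt-Co1, the subunit that holds the site of oxygen reduction, had 29787, 31962 and 37459 CPM in WT and 35203, 37640.3 and 42379 in A1cf KO. WT 776 and WT 778 lay within the A1cf KO range and 3 A1cf KO libraries lay above every WT library (0.20, SE 0.092, adjusted p = 0.48 by edgeR). mt-Co2, the subunit that takes electrons from cytochrome c, had 10.9, 15.9 and 30.3 CPM in WT and 12.2, 17.8 and 20.9 in A1cf KO, and its highest value was WT 776. mt-Co3 had 19.8, 26.7 and 30.1 CPM in WT and 18.7, 26.2 and 33.1 in A1cf KO. Their log2 fold changes were -0.02 (SE 0.21, adjusted p = 0.99 by edgeR) and 0.0009 (SE 0.14, adjusted p = 0.998 by edgeR). The sign of each turned under other scalings, fits or left-out libraries, so no direction is given for either.

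The ATP synthase mRNAs overlap each other and lie in the copied segment. mt-Atp6, the subunit that lines the proton path, had 7.64, 12.01 and 14.03 CPM in WT and 7.90, 12.3 and 16.2 in A1cf KO, with wide overlap (0.09, SE 0.17, adjusted p = 0.89 by edgeR, and -0.01 without A1cf KO 574). mt-Atp8 had 14 to 99 counts per library, or 0.319, 0.802 and 1.47 CPM in WT and 0.619, 1.15 and 1.85 in A1cf KO. Its fold change was the largest of the mRNAs and the least precise (0.60, SE 0.33, adjusted p = 0.54 by edgeR).

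Read over both groups, the 7 well-counted mRNAs had a median log2 fold change of 0.22, with 6 higher at an unadjusted p under 0.05 in edgeR, and the 6 in the copied segment a median of 0.16, with 1 higher, against 5.07% of all genes tested. Whether the 2 sets differ was not tested. WT 776 was the highest WT library for each of the 7. It is also the library with the lowest total count. A1cf KO 780, with the lowest total of its group (30653736), had the highest mitochondrial share of all libraries, at 12.7%. A1cf KO 584, with the next lowest total (35129972), had the lowest share of its group, at 11.1%. The part of depth in these values was not tested.

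The rRNAs form the small (mt-Rnr1, 12S) and large (mt-Rnr2, 16S) parts of the mitochondrial ribosome. mt-Rnr1 ran 544, 818 and 942 CPM in WT and 718, 869 and 1235 in A1cf KO, and mt-Rnr2 813, 1181 and 1453 in WT and 1004, 1175 and 1806 in A1cf KO. Both groups overlapped widely, and A1cf KO 780 was the highest library for each. The log2 fold changes were 0.27 (SE 0.14, adjusted p = 0.54) and 0.15 (SE 0.17, adjusted p = 0.80 by edgeR). There were 1.45 to 2.33 rRNA counts per 100 mRNA counts in WT and 1.54 to 2.37 in A1cf KO. Per length the rRNAs (883 and 757) lay below each of the 7 well-counted mRNAs, as counted in these libraries, whose treatment of rRNA is not given.

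Nearly all tRNA counts fell in genes annotated on the minus strand, though the counting does not show which strand the RNA came from. The 8 minus-strand tRNAs had 3169 to 5581 counts per library, 99.3% of all tRNA counts, and the 14 plus-strand tRNAs 21 to 53, or 0.747%. mt-Tp alone held 69.6% to 83.7% of tRNA counts in WT and 80.8% to 85.6% in A1cf KO. With mt-Tc, mt-Tn and mt-Te it held 98.6% to 99.0% in WT and 98.3% to 99.4% in A1cf KO. The other minus-strand tRNAs, mt-Ta, mt-Ty, mt-Tq and mt-Ts1, were as scarce as plus-strand ones, with at most 14 counts in any library. The 5 tested tRNAs, with the anticodon in capitals, written as DNA from GENCODE M21, were those for proline (mt-Tp, chrM:15356-15422), cysteine (mt-Tc, chrM:5192-5257), asparagine (mt-Tn, chrM:5089-5159) and glutamate (mt-Te, chrM:14071-14139), all minus strand, and for leucine on the plus strand (mt-Tl1, chrM:2676-2750):
mt-Tp: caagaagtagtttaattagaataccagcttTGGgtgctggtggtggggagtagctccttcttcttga
mt-Tc: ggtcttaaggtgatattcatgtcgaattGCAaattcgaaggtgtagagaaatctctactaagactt
mt-Tn: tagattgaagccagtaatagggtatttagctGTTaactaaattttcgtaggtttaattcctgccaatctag
mt-Te: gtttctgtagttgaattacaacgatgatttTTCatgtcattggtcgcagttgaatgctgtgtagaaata
mt-Tl1: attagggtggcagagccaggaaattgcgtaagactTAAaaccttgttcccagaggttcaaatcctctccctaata

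mt-Tn and mt-Tc are separated by 32 bases with no annotated gene, mt-Te lies 5 bases from mt-Cytb and abuts mt-Nd6, and mt-Tp abuts mt-Tt and is followed by no annotated gene. mt-Tf, at the other end of the annotated order, had 0 to 2 counts per library. mt-Tl1, between mt-Rnr2 and mt-Nd1 with no gap on either side, had only 8 to 38 counts per library. A count in a tRNA gene may come from a longer RNA that runs through it, which these counts cannot tell apart from the mature tRNA.

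mt-Tp had 57.5, 74.7 and 91.2 CPM in WT and 81.9, 89.0 and 103.8 in A1cf KO. WT 776 lay within the A1cf KO range and 2 A1cf KO libraries lay above it (0.31, SE 0.10, adjusted p = 0.32 by edgeR). mt-Tc had 6.67, 11.1 and 19.8 CPM in WT and 7.22, 8.86 and 13.2 in A1cf KO (-0.36, SE 0.24, adjusted p = 0.63 by edgeR), and mt-Tn 3.94, 5.72 and 10.2 in WT and 3.94, 4.50 and 7.14 in A1cf KO (-0.23, SE 0.23, adjusted p = 0.77 by edgeR). For each of these genes the highest library was WT 778 and no A1cf KO library lay above it. mt-Te stayed between 1.73 and 3.85 CPM (0.21, SE 0.17, adjusted p = 0.70 by edgeR), and mt-Tl1 between 0.149 and 1.07 (0.06, SE 0.38, adjusted p = 0.97 by edgeR), both with wide overlap.

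The animal number series moved with several of these genes. mt-Tc had 6.67 to 11.3 CPM in WT animals of 573 to 602 and 10.9 to 19.8 in those of 776 to 780, and the A1cf KO animals had 7.22 to 9.34 and 13.2. mt-Rnr2 had 813 to 1110 CPM in the WT animals of the first series and 1251 to 1453 in those of the second, against 1004 to 1354 and 1806 in A1cf KO. Within animals 573 to 602 the log2 fold change of mt-Tc was 0.02, so its negative value over all libraries was not seen there, and likewise that of mt-Tn was 0.08. What the series stands for in these values was not tested, and the second series holds 1 A1cf KO animal.

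Within animals 573 to 602 the A1cf KO libraries lay above all WT libraries for 5 of the 20 tested genes (mt-Nd2, mt-Co1, mt-Nd4, mt-Nd5 and mt-Tp) and below them for 0, against 2.57% and 3.1% of all genes tested. mt-Nd5 had 6890.4 to 7448 CPM in the 3 WT animals and 8632 to 9740 in the 5 A1cf KO animals (0.38, SE 0.086, adjusted p = 0.36 by edgeR). mt-Nd2 had 7405 to 9549 CPM in WT and 10289 to 12135 in A1cf KO (0.39, SE 0.11, adjusted p = 0.52 by edgeR). For mt-Co1 the ranges were 31009 to 32331 and 35203 to 38832 CPM, for mt-Nd4 7662 to 8557 and 8615 to 10488, and for mt-Tp 57.5 to 78.0 and 81.9 to 96.9. With the series as a covariate over all 12 libraries the log2 fold changes were 0.38 for mt-Nd5 (adjusted p = 0.087), 0.42 for mt-Nd2 (0.11) and 0.42 for mt-Rnr1 (0.11), again without a call by edgeR.

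The makeup of the mitochondrial mRNA pool was much alike in all libraries, with small shifts among complex I mRNAs. mt-Co1 made up 33.4% ± 0.53 of mitochondrial mRNA counts in WT and 32.8% ± 1.89 in A1cf KO, and mt-Cytb 23.0% ± 0.42 and 22.7% ± 1.12 (SD, n = 6 each). A1cf KO 584 stood apart from the other A1cf KO libraries, with the most mt-Co1 (36.4%) and the least mt-Cytb (20.5%).

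mt-Nd5 had a lowest, median and highest share of 7.30%, 7.66% and 8.05% in WT and of 7.99%, 8.23% and 8.45% in A1cf KO. For mt-Nd2 the values were 8.15%, 9.41% and 10.03% in WT and 9.81%, 9.996% and 10.8% in A1cf KO. mt-Nd6 went the other way, with 3.39%, 3.72% and 3.88% in WT and 3.11%, 3.41% and 3.53% in A1cf KO. Each pair of groups overlapped. For mt-Nd5 the overlap was at the edge, and 5 A1cf KO libraries had a share above every WT library. For mt-Nd6, WT 573 was the one WT library within the A1cf KO range. It lay well inside that range, and 3 A1cf KO libraries had a mt-Nd6 share below every WT library. Set against each other, there were 1.89, 2.06 and 2.35 mt-Nd5 counts per mt-Nd6 count in WT and 2.33, 2.41 and 2.65 in A1cf KO. These shares were picked out after their values were seen and are given as a description.

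**Figure D5:**
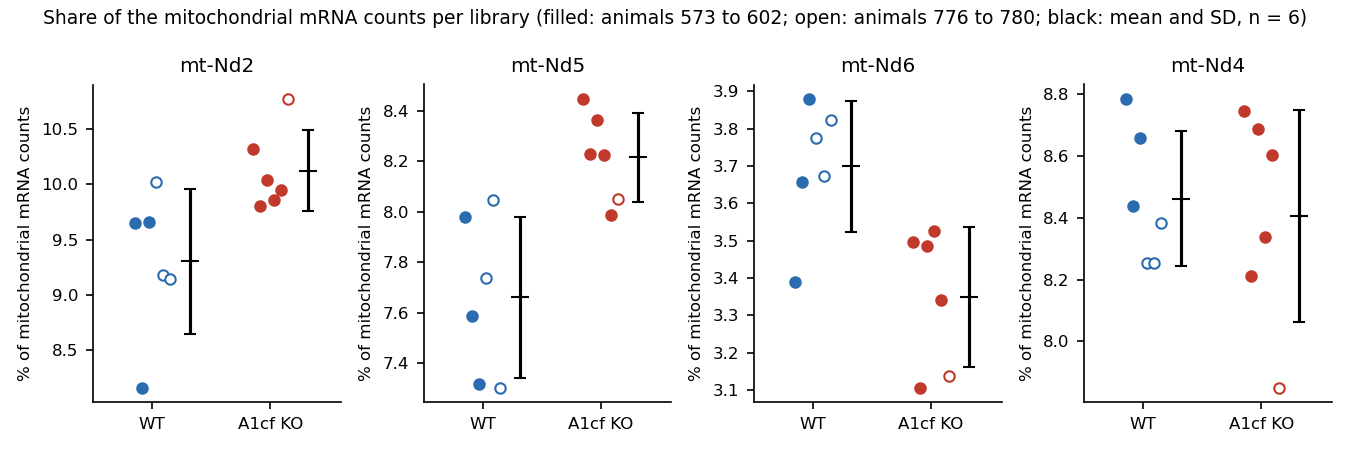
Share of mitochondrial mRNA counts (percent) held by mt-Nd2, mt-Nd5, mt-Nd6 and mt-Nd4, with a point per library (filled for animals 573 to 602, open for 776 to 780) and the mean and SD of each group in black; the axes differ between panels and do not start at 0. The shares of mt-Nd5 and mt-Nd2 sit higher and that of mt-Nd6 lower in A1cf KO, each with some overlap, and mt-Nd4 spans a like range in both.

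The nuclear genes that serve the mitochondrial chromosome were described from lists of its transcription factors, its RNA processing factors, its replication and nucleoid proteins, and regulators of nuclear genes for mitochondria. None of the 59 tested genes of these lists passed by edgeR. At an unadjusted p under 0.05, 3 were higher and 5 lower, near the 5.07% and 5.28% of all genes tested. DESeq2 called 1, as higher, against 0.603% of all genes, and limma-voom called 0. Of 9 transcription genes 5 were positive, with a median of 0.04. Mterf2, a member of the mitochondrial transcription termination factor family, had 6.83 ± 0.73 CPM in WT and 5.88 ± 0.58 in A1cf KO (-0.22, adjusted p = 0.47 by edgeR), and Mterf3 of the same family 26.0 ± 2.38 and 28.1 ± 1.24 (0.11, adjusted p = 0.57 by edgeR). Mterf4, also of this family, had 20.1 ± 2.73 and 17.9 ± 1.70 CPM (-0.16, adjusted p = 0.55 by edgeR). Over the alternatives other than leaving out a library, Mterf3 ranged from 0.043 to 0.11 and Mterf4 from -0.20 to -0.046.

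Among 27 RNA processing genes 16 were positive, with a median of 0.02. Mto1, which modifies wobble bases of mitochondrial tRNAs, had 21.8 ± 1.15 CPM in WT and 25.9 ± 1.96 in A1cf KO, with 5 A1cf KO libraries above every WT library (0.25, SE 0.063, adjusted p = 0.21 by edgeR and 0.032 by DESeq2, 0.032 being the lowest of its alternatives). Tfb1m, which methylates the 12S rRNA, had 4.99 ± 0.31 and 5.76 ± 0.58 CPM (0.21, adjusted p = 0.47 by edgeR). Fastkd3, of the FAST kinase domain family of mitochondrial RNA-binding proteins, had 9.54 ± 0.64 and 8.18 ± 0.69 (-0.22, adjusted p = 0.37 by edgeR).

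The 13 replication and nucleoid genes had a median of -0.02, with 5 positive. Dguok and Tk2, which phosphorylate deoxynucleosides for mitochondrial DNA, had log2 fold changes of -0.16 and -0.11 (adjusted p = 0.40 and 0.49 by edgeR), and the topoisomerase Top1mt 0.13 (adjusted p = 0.63 by edgeR). The 10 regulators had a median of 0.06, with 6 positive. Ppargc1a, the coactivator PGC-1alpha, had 78.3 ± 11.3 CPM in WT and 67.8 ± 4.55 in A1cf KO (-0.21, adjusted p = 0.43 by edgeR), and the nuclear receptor gene Esrrb 43.3 ± 14.02 and 28.8 ± 8.04 (-0.59, adjusted p = 0.37 by edgeR). Over the alternatives other than leaving out a library, the log2 fold change of Ppargc1a ranged from -0.25 to -0.034. That of Esrrb ranged from -0.64 to -0.21. Yy1 went the other way, with 29.0 ± 3.02 CPM in WT and 32.3 ± 2.13 in A1cf KO (0.15, adjusted p = 0.48 by edgeR).

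The nuclear partners of the mitochondrial subunits leaned to the opposite sign. Of 76 nuclear genes for subunits of complexes I to IV and ATP synthase, 57 had negative and 19 positive fold changes, with a median of -0.05, against 50.8% negative and 49.2% positive over all genes. None passed by edgeR, DESeq2 or limma-voom, and 1 was lower and 0 higher at an unadjusted p under 0.05 in edgeR, against 5.28% and 5.07% of all genes tested. By complex the medians were -0.04 for complex I (25 of 36 negative), -0.01 for complex II (2 of 4), -0.03 for complex III (6 of 9), -0.05 for complex IV (11 of 12) and -0.06 for ATP synthase (13 of 15). Sdhd, a membrane anchor of complex II, which has no mitochondrially encoded subunit, had 321 ± 28.1 CPM in WT and 276 ± 28.2 in A1cf KO (-0.22, SE 0.078, adjusted p = 0.37 by edgeR). Ndufs7, an iron-sulfur subunit of complex I, had a log2 fold change of -0.14, Uqcrc2, a core subunit of complex III, -0.12, and Atp5f1, of the stalk of ATP synthase, -0.16 (adjusted p = 0.67, 0.54 and 0.52 by edgeR). Sdhc of complex II and Uqcrfs1 of complex III were positive, at 0.06 and 0.08 (adjusted p = 0.79 and 0.73 by edgeR). Whether this lean differs from that of the mitochondrially encoded mRNAs was not tested.

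Markers of the cell types that whole kidney can hold were read beside these values. The summed level of 12 proximal tubule markers was 44316 to 60969 CPM in WT libraries and 46293 to 65666 in A1cf KO libraries, with 9 of 12 fold changes positive. Kap alone gave most of this sum, with a mean of 31080 of 52538 CPM in WT and 35425 of 59007 in A1cf KO. For 10 loop of Henle markers it was 5025 to 7307 CPM in WT libraries and 3819 to 4830 CPM in A1cf KO libraries. The groups did not overlap, the A1cf KO libraries being the lower, and 9 of 10 fold changes were negative. Umod alone gave a mean of 3084 of 5941 CPM in WT and 2218 of 4420 in A1cf KO. Its own groups did not overlap either. Of the 10 loop of Henle markers 0 passed by edgeR and by limma-voom. At an unadjusted p under 0.05 in edgeR 9 were lower, against 5.28% of all genes tested, and DESeq2 called 4 as lower, against 0.536%. Distal convoluted tubule (948 to 1541 and 943 to 1235), principal cell (469 to 696 and 453 to 586) and intercalated cell markers (294 to 436 and 296 to 311) overlapped. Their fold changes were negative for all 5, 6 and 6 markers tested, with medians of -0.22, -0.22 and -0.21, and no A1cf KO library lay above the WT mean of any of the 3 sums. In whole tissue, a change in the number of cells of a type and a change in RNA per cell cannot be told apart, and the part of tubule makeup in the mitochondrial values was not tested.

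Other tissues rich in mitochondria could also add such transcripts. The sum of 6 muscle markers, Des among them, was 10.7 to 18.7 CPM in WT and 10.6 to 16.8 in A1cf KO. Only 2 of the 6 were tested, as Acta1, Ckm, Myh4 and Tnnt3 had too few counts. Ckm had at most 6 counts in any library and Myh4 had 0 in all. Acta1 had at most 68 counts, in A1cf KO 584. Adipocyte markers varied most, between 62.1 and 540 CPM in WT libraries and between 43.8 and 734 in A1cf KO libraries. Their means were 195 CPM in WT and 311 in A1cf KO. Fold changes were positive for 7 of the 8 adipocyte markers tested, with a median of 0.84. At an unadjusted p under 0.05 in edgeR 0 were higher and 0 lower, against 5.07% and 5.28% of all genes tested. Ucp1, which marks brown fat, had a median of 0.132 CPM in both groups but reached 12.6 in WT and 28.5 in A1cf KO 602. Without A1cf KO 602 the median log2 fold change of the mitochondrial mRNAs was 0.19, against 0.22 with it. Other libraries with adipocyte markers stayed in, so this value does not test the part of fat. Blood cell markers ran from 251 to 432 CPM in WT and 161 to 457 in A1cf KO, with overlap and all 6 fold changes negative. Slc4a1 is in both this list and that of intercalated cells, and the lowest fold change of each list was -0.31. Immune cell markers ran from 100 to 141 CPM in WT and 116 to 148 in A1cf KO, also with overlap. Their fold changes were positive for 8 of 9, with a median of 0.35, and 3 were higher at an unadjusted p under 0.05 in edgeR (5.07% of all genes tested). DESeq2 called 1 of them as higher (0.603%). The part of these cells in the mitochondrial values was not tested.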

How the data were processed

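RNA of 12 whole kidneys was extracted with the miRNeasy kit and made into Illumina TruSeq libraries from 1 ug of total RNA, per the labels' protocols. The authors deposited counts of reads per gene name, made with featureCounts 1.5.0-p2 over exons of GENCODE M8 from trimmed, merged and duplicate-marked alignments, per the file headers. The command sets no strand, pair, duplicate or multi-mapping option. STAR, DESeq2 and mm10 are named in the submitters' processing notes, without versions.

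The counts were tested in R 4.3.3 with edgeR 4.0.16 (filterByExpr, TMM, quasi-likelihood F test for genotype over all 12 libraries), with Benjamini-Hochberg adjustment over all 16910 genes tested and a threshold of 0.05. Standard errors are the log2 fold change divided by the square root of F. P-values measure the spread between animals. The fit was checked on simulated counts with changes larger than any seen in the mitochondrial mRNAs. The check does not show whether changes as small as theirs would be called. Alternatives were DESeq2 1.42.0, limma-voom (limma 3.58.1), other scalings and filters, a robust fit, the animal series as a covariate or the first series alone, and leaving out each library.

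Gene positions and sequences came from GENCODE M21 on GRCm38, the same build as mm10. All 37 names matched. Shared windows, computed from the annotated transcripts, were added after the data were seen. The members and gene lists were chosen with earlier results of these data known. Genes named are all mitochondrial genes tested, A1cf, and from each nuclear list the 3 genes with the smallest p, of which some are printed. Counting error is small for the well-counted mRNAs and limits genes under about 100 counts. Precision otherwise rests on 6 animals per group.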

Additional observations from a re-analysis of the deposited data

Results flagged for a closer look

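Of 52 groups of 6 libraries checked (the 20 tested mitochondrial genes and 6 shares or ratios of counts, in each genotype), 6 held a library whose gap to its nearest neighbour was large against the range of its group. Chance alone marks about 1 group in 20. In WT these were mt-Co2 in WT 776 (30.3 CPM) and mt-Nd4l in WT 776 (2.58 CPM). In A1cf KO they were mt-Nd6 in A1cf KO 584 (3258 CPM, the low end), mt-Tl1 in A1cf KO 602 (1.07 CPM), mt-Tc in A1cf KO 780 (13.2 CPM) and mt-Te in A1cf KO 591 (3.85 CPM). A1cf KO 780 is the one A1cf KO animal of the series 776 to 780, in which WT libraries also had 10.9 CPM of mt-Tc or more.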

How the results depend on the processing

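Over all genes tested, 8 passed the threshold, against 170 by DESeq2, 24 with the animal series as a covariate, and 6 to 12 with a library left out. Of the mitochondrial genes 0 passed in edgeR and limma-voom, under every other alternative and with any library left out (0 to 0), except for 1 by DESeq2 (mt-Nd5). The median log2 fold change of the mitochondrial mRNAs stayed between 0.18 and 0.25 over 11 alternatives and between 0.19 and 0.25 with a library left out. The difference in mitochondrial share (1.46 percentage points) ranged from 1.24 to 1.87. Over 47 genes and 1079 gene values under alternatives, 1052 kept sign and side of the threshold, 2 passed newly (mt-Nd5 at 0.33 and Mto1 at 0.25 by DESeq2) and 25 changed sign. Sign changes were mt-Tl1 at -0.14 by limma-voom and from -0.37 to 0.26 with a library left out; mt-Tn at 0.025 with the covariate and 0.077 within animals 573 to 602; mt-Tc at 0.015 and Top1mt at -0.0020 within those animals; mt-Co2 at 0.011 with the covariate, 0.11 by limma-voom, 0.19 within animals 573 to 602 and -0.12 to 0.21 with a library left out; mt-Atp6 from -0.0082 to 0.19 with a library left out; and mt-Co3 at -0.059 with the covariate, -0.031 on library totals, -0.00360 with upper-quartile scaling and -0.085 to 0.078 with a library left out. The cause was not tested. No paired analysis was made because the labels give no pairing of the animals. For mt-Tl1 the strict filter and DESeq2 gave no value.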
